A study of Rattus norvegicus with 28 samples.

Results

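A rule on ratio, overlap and level took 96 of the 30560 genes in the late spinal cord table of rat. It compared libraries whose column names carry a plus mark with those that carry a minus mark. By ratio of mean CPM, the 96 were at most 0.5 times as high in the plus-marked libraries. CPM scales the count of a gene to the total count of its library. Genes were taken where the highest of the 4 plus-marked libraries lay below the lowest of the 4 minus-marked ones, where mean plus-marked over mean minus-marked CPM was at most 0.5, and where the mean over the 8 libraries was at least 1 CPM. The rule used the late spinal cord values themselves, so those values are given as a description, and tests were run in brain.

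The plus mark was taken to stand for mtCO3mut and the minus mark for wild type (WT), a reading that rests on the column names and that the labels do not state. The labels give 4 mtCO3mut and 4 WT samples of spinal cord, and the same of brain. The series text describes the mutant rats as COXⅢNeuN-Cre and as deficient in complex IV in neurons, and its title names editing of mitochondrial DNA. NeuN is a nuclear protein of most mature neurons. Age, sex and the number of animals per sample are not stated in the labels used here. The title of the spinal cord table names it lumbar, and the table is called late here because a separate table is titled as early stage. The 12 columns of that early-stage table carry names that no label ties to a genotype, so the early-stage samples (6 mtCO3mut and 6 WT in the labels) were not analysed here.

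Cytochrome c oxidase, or complex IV, is the last enzyme of the respiratory chain and passes electrons to oxygen. COX3 is one of its core subunits and is encoded by mitochondrial DNA, while most of its other subunits are encoded in the nucleus. Neurons draw most of their ATP from this chain, and the lumbar cord holds the motor neurons of the hind limbs, together with glia, vessels and the entering roots of peripheral nerves. The tables identify genes only by Ensembl identifiers, and none could be matched to a name, so no gene is given a function here. The edited gene and the markers of neurons, glia, vessels and nerve roots could not be looked up for the same reason, and the labelled tissues were not checked against markers. The members are called by their rank in the ratio of means, from 1 for the smallest, and identifiers are printed for a pair of them.

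Late spinal cord libraries held 21008418 to 47597097 counts and brain libraries 33105800 to 82776333. Plus-marked library 2 was the shallowest spinal cord library. All 4 plus-marked brain libraries had higher totals than all 4 minus-marked ones. The column names carry the same 8 numbers in both tissues, so a spinal cord and a brain library of the same number may come from the same animal. Brain is therefore a separate set of libraries, but may not be a separate set of rats. Nothing in the labels says that samples of a group were separate animals, and the p-values below reflect only how these libraries vary, some of which may be technical.

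The members' ratios ran from 0.119 to 0.499948, with a median of 0.43, where all 15085 genes with a mean of at least 1 CPM had a median ratio of 1.01. The ratio was at most 0.25 in 10 members and at most 0.4 in 39. Marks without overlap and lower in the plus-marked libraries were found in 10.4% of those 15085 genes, and a ratio of at most 0.5 in 0.941%, of which 46 genes had overlapping marks and stayed out. The whole rule took 0.636%. By edgeR, 6.66% of all genes tested in late spinal cord were called lower in the plus-marked libraries. That share is over all genes tested, members included. How many members were called is not given, since the same values chose them. Just inside the limits lay genes with ratios of 0.49995 and 0.49854, with means of 1.01 and 1.08 CPM, and with a highest plus-marked value of 0.991 and 0.977 times the lowest minus-marked one. Just outside lay genes with ratios of 0.505 and 0.505, with means of 0.930 and 0.901 CPM, and with 1.03 and 1.03 times.

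Members differed widely in level. Their mean in minus-marked spinal cord ran from 1.48 to 6368 CPM with a median of 21.2 CPM. At least 100 CPM was reached by 23 members, while 36 lay under 10 CPM. The lowest count behind any member was 4 in a spinal cord library, and 86 members had at least 10 counts in all 8 libraries. In these bulk libraries, fewer cells of a type and less RNA per cell cannot be told apart.

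ENSRNOG00000003171, ranked 11 by ratio, had the highest level of the members. Its CPM in minus-marked spinal cord was 4457, 8521, 5465 and 7028 in libraries 1 to 4, and in plus-marked spinal cord 1666, 1023, 2253 and 1827. Every plus-marked library stood well below every minus-marked one, with means of 1692 ± 510 and 6368 ± 1783 CPM (SD, n = 4). This gene alone made up 34.5% of the summed minus-marked level of all 96 members. In brain it was scarce under both marks, at 1.10 to 6.51 CPM in plus-marked and 2.57 to 5.73 CPM in minus-marked libraries. The marks overlapped there, and the fitted change was 0.31 on the log2 scale (SE 0.50, edgeR adjusted p = 0.899).

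The member ranked 14 was second in level. It had 2392, 3830, 2542 and 3892 CPM in minus-marked and 1147, 456, 1082 and 1027 CPM in plus-marked spinal cord. Plus-marked library 2 stood lowest, and the other 3 lay close together. In brain it had 36.0 to 42.8 CPM in plus-marked and 40.0 to 49.7 CPM in minus-marked libraries, which overlapped (log2 fold change -0.15, SE 0.10, edgeR adjusted p = 0.674).

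Rank 5 had 754, 1180, 608 and 942 CPM in minus-marked spinal cord and 176, 165, 175 and 223 CPM in plus-marked spinal cord. The plus-marked libraries were close to each other, and the minus-marked ones spread over a wider range. In brain this member had 0.482 to 1.48 CPM over all 8 libraries. Rank 20, at a similar level, had 711, 1200, 718 and 812 CPM in minus-marked and 245, 192, 355 and 309 CPM in plus-marked spinal cord, and 1.09 to 1.77 CPM in brain. Its brain libraries did not overlap, the plus-marked ones being higher at 1.51 to 1.77 against 1.09 to 1.39 CPM, but the fitted change of 0.37 on the log2 scale did not pass the test (SE 0.22, edgeR adjusted p = 0.643).

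**Figure D1:**
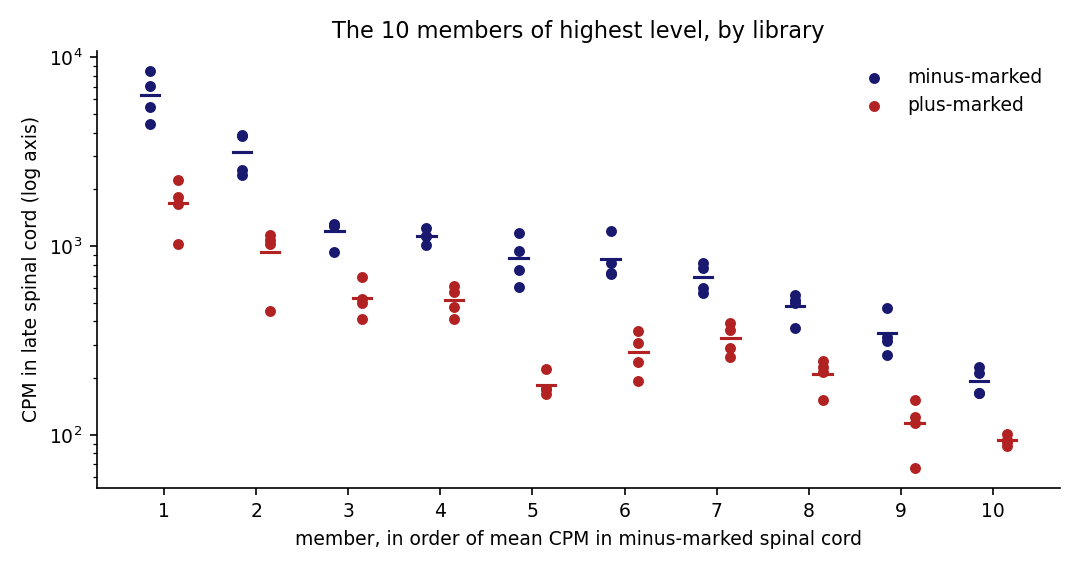
CPM on a log axis in each late spinal cord library for the 10 members of highest level, ordered by their mean in minus-marked libraries; points are libraries (4 per mark) and short lines are means. All plus-marked points lie below all minus-marked points for each member, as the rule requires; the first member runs from 1023 to 2253 CPM against 4457 to 8521 CPM.

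Among the members with the smallest ratios, rank 2 stood out in level. It had 114, 134, 104 and 111 CPM in minus-marked spinal cord, a narrow range, and 8.28 CPM in plus-marked library 2 against 21.1 to 23.1 CPM in the other 3 plus-marked libraries. In brain it was near 0, at no more than 0.701 CPM in any library. The other members of ranks 1 to 4 were rare. Rank 1 had 1.60 to 3.03 CPM in minus-marked and 0.107 to 0.496 CPM in plus-marked spinal cord, rank 3 had 2.23 to 10.9 and 0.347 to 1.81 CPM, and rank 4 had 2.85 to 7.94 and 0.666 to 1.39 CPM. Rank 3 therefore varied almost as much among the minus-marked libraries as it differed between the marks.

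Brain level, which the rule had not used, varied widely among the members. Over the 8 brain libraries, 24 of 96 members (25.0%) had a mean under 1 CPM, where 7.54% of the 15085 genes did. A mean of 1 to under 10 CPM was found in 43 members (44.8%, against 26.0%), and 10 CPM or more in 29 (30.2%, against 66.4%). These limits were chosen after the values had been seen, and no test was made of them. The median ratio in late spinal cord was 0.342, 0.430 and 0.447 in the order of rising brain level, on values that the rule used. Over all genes of at least 1 CPM the order was the opposite, with medians of 1.29, 1.08 and 0.981. Of the 10 members with the smallest ratios, 7 belonged to the group under 1 CPM in brain. Of the 10 with the highest spinal cord level, 7 belonged to the group of 10 CPM or more.

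Most members were more abundant in spinal cord than in brain, each scaled to its own library totals. In minus-marked libraries 80 of 96 had a higher mean CPM in spinal cord (83.3%, against 68.0% of the 15085 genes). The median of the spinal cord over the brain level was 6.01 for the members and 1.38 for those genes. For 77 members (80.2%, against 49.3%) every minus-marked spinal cord library exceeded every minus-marked brain library. The rule took members for high values in those minus-marked spinal cord libraries, which favours spinal cord in these comparisons, so they are a description. The plus-marked spinal cord libraries all exceeded all 8 brain libraries for 56 members (58.3%, against 46.3%). Among the members with at least 100 CPM in minus-marked spinal cord, the largest such contrasts were 1670 times the brain level for ENSRNOG00000003171, 1211 times for rank 86, 1020 times for rank 5 and 681 times for rank 20. The fold of rank 86 is uncertain, with 62 counts over all 8 brain libraries and 0.0604 to 0.277 CPM in the minus-marked ones. Rank 57 had 31.8 to 40.7 CPM in minus-marked and 9.90 to 21.1 CPM in plus-marked spinal cord, with 29 counts over all 8 brain libraries together, too few for a fold to be given. One member had 0 counts in every brain library, which allows a level of up to 0.00633 CPM over the 474109771 counts.

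**Figure D2:**
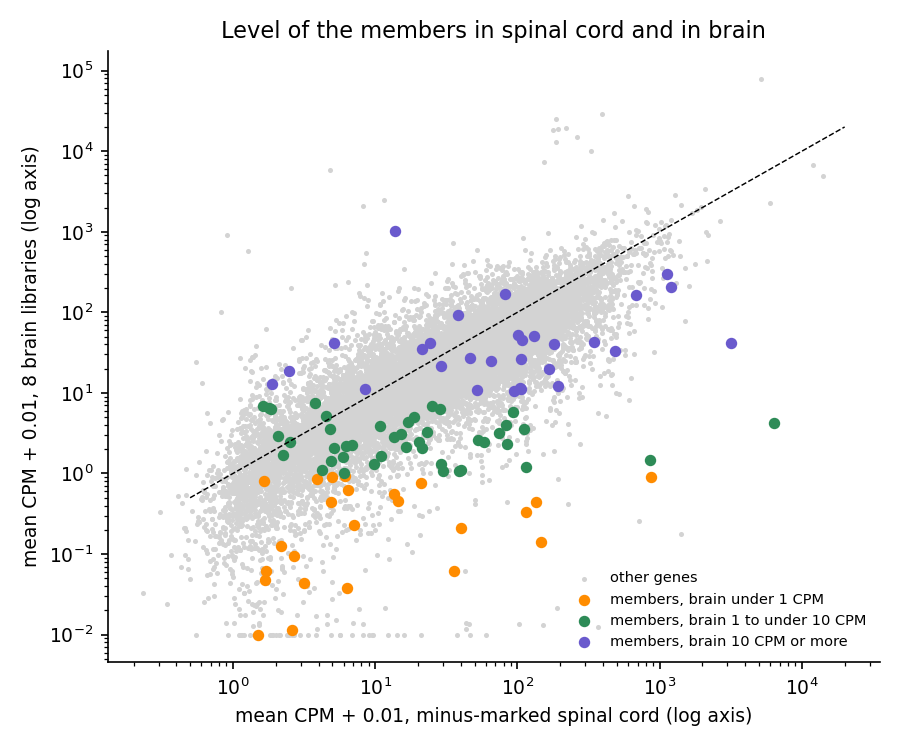
Mean CPM + 0.01 in minus-marked late spinal cord (horizontal, log axis) against mean CPM + 0.01 over the 8 brain libraries (vertical, log axis) for genes of at least 1 CPM in late spinal cord; coloured points are the 96 members by brain level and the dashed line marks equal levels. In minus-marked libraries 80 members have the higher mean in spinal cord, and a few reach 100 CPM or more with under 1 CPM in brain. The rule used the spinal cord values.

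Members were frequent among genes far more abundant in minus-marked spinal cord than in minus-marked brain, although most such genes had no low ratio. Of all genes, 159 had at least 10 CPM in minus-marked spinal cord and at least 20 times their minus-marked brain level. Of these, 23 were members (14.5%), where 60 of all 10869 genes with at least 10 CPM were members (0.552%). A ratio of at most 0.5 was found in 26 of the 159 (16.4%). The 0.941% above is over genes with a mean of at least 1 CPM, so the level limits of these shares differ. The other genes of this kind mostly lay higher, since the median ratio over the 159 was 1.11 and 88 of them had a ratio above 1. Both the rule and this limit favour genes with high values in the minus-marked spinal cord libraries. The share of members was therefore raised in advance by an unknown amount, and these shares are a description.

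A smaller set of 16 members was more abundant in brain by the means of the minus-marked libraries. Rank 69 had 13.7, 15.2, 15.8 and 10.5 CPM in minus-marked and 6.86, 2.62, 8.11 and 7.63 CPM in plus-marked spinal cord, against 418 to 1643 CPM in minus-marked and 636 to 1152 CPM in plus-marked brain. The brain marks overlapped widely for this member, with a log2 fold change of -0.19 (edgeR adjusted p = 0.914).

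Summed over the members, plus-marked spinal cord held 6487, 4271, 7247 and 6751 CPM and minus-marked spinal cord 15243, 23096, 15730 and 19859 CPM, a ratio of means of 0.335. The sum in the plus-marked libraries was lowest in library 2 and the sum in the minus-marked ones highest in library 2. In brain the same genes summed to 2314 to 2674 CPM in plus-marked and 1987 to 3552 CPM in minus-marked libraries, and the marks overlapped. Rank 69 alone held 418 to 1643 CPM of the minus-marked and 636 to 1152 CPM of the plus-marked brain sums. The lowest brain sum was that of minus-marked library 4, which was the lowest of its mark for 77.4% of the 15085 genes. The 24 members under 1 CPM in brain summed to 291 to 460 against 1100 to 1857 CPM in spinal cord (ratio 0.261), and to 7.99 to 10.015 against 7.31 to 9.48 CPM in brain (ratio 1.01). Rank 5 alone held a mean of 871 of their 1450 CPM in minus-marked spinal cord, so that ratio mostly reflects 1 gene. The 29 members of 10 CPM or more in brain summed to 2426 to 3734 against 7476 to 10199 CPM in spinal cord (ratio 0.389), and to 2179 to 2527 against 1870 to 3403 CPM in brain (ratio 0.853). These 29 include rank 69.

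**Figure D3:**
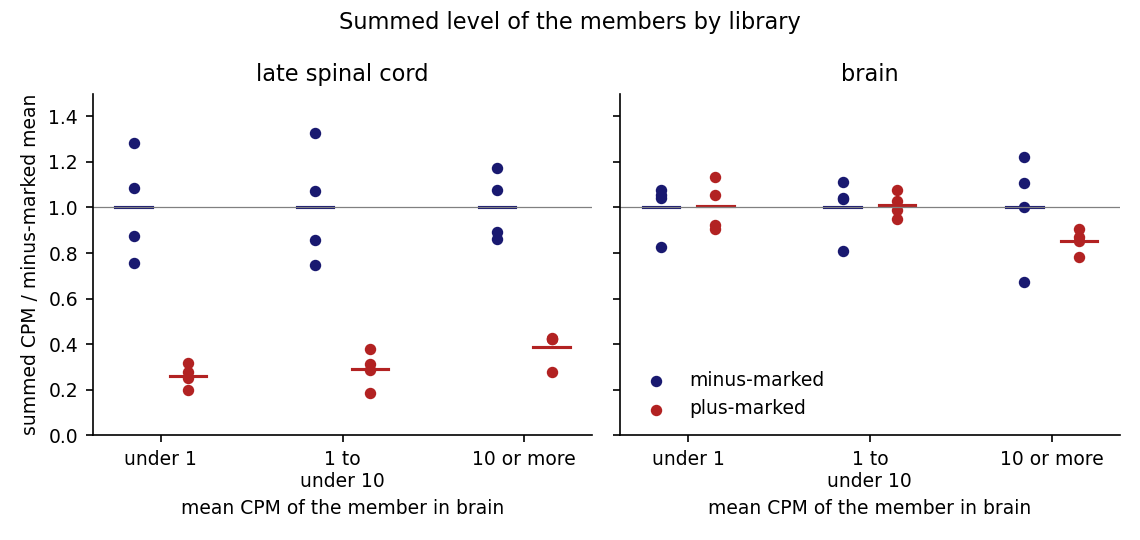
Summed CPM of the members in each library, divided by the mean of the minus-marked libraries of the same tissue, for members grouped by mean brain level; points are libraries (4 per mark and tissue), short lines are means. In late spinal cord the ratios of means are 0.261, 0.291 and 0.389, fixed to be low by the rule, and in brain they are 1.01, 1.01 and 0.853 with overlapping marks. In the middle group ENSRNOG00000003171 alone holds 6368 of the mean 8333 CPM in minus-marked spinal cord.

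Single libraries set the extremes for many members. Plus-marked library 2 was the lowest of its mark for 74 of 96 members (77.1%, against 38.3% of the 15085 genes) and the highest for none. Minus-marked library 2 was the highest of its mark for 61 members (63.5%, against 26.8%). A rule on the ratio of means can favour such libraries, and plus-marked library 2 was also the shallowest. With counts thinned to the total of that library, 91 of the 96 still met the rule. What lay behind these extremes was not tested. Without plus-marked library 2, 63 of the 96 still met the rule and 75 genes met it in all. Without minus-marked library 2 these were 73 and 76. With each of the 8 libraries left out in turn, 55 members met the rule every time, and without plus-marked library 1 the rule took 146 genes. Within a mark the members also varied more than other genes did, on values that the rule used and without matching on level. The median of the highest over the lowest minus-marked library was 1.62 for the members and 1.30 for the 15085 genes, and in the plus-marked libraries it was 1.85 and 1.40.

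The column names also carry a lane-like code. In late spinal cord L24 holds 3 plus-marked and 1 minus-marked library, and the other codes hold 1 plus-marked and 3 minus-marked libraries. Within L24, the ratio was at most 0.5 in 49 of the 96 members, with a median of 0.495 and a range of 0.113 to 0.769, and all were below 1, as marks without overlap require. In the other 4 libraries it was at most 0.5 in 95 members, with a median of 0.287. The lone minus-marked L24 library, library 3, was the lowest of its mark for 39 members, and the lone plus-marked library outside L24 was library 2. The part of the code in these ratios was not tested.

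In brain, 87 of the 96 members passed the count filter, and the other 9 had a mean of at most 0.117 CPM. By edgeR's quasi-likelihood test, 1 of the 87 was called lower in plus-marked brain (1.15%, where 0.0534% of the 16860 genes tested were called lower) and 0 were called higher (0.19% of the genes tested). At an unadjusted p under 0.05, 9 were lower (10.3%, against 4.92%) and 2 were higher (2.30%, against 4.21%). DESeq2 called 4 lower (ranks 55, 71, 78 and 81) and 0 higher. The share of all genes that DESeq2 called in brain is not given here, so that count has no background. Marks that did not overlap were found for 7 lower members (8.05%, against 1.7%) and 1 higher (1.15%, against 1.81%). Overlap was judged on CPM, in which minus-marked brain library 4 was the lowest of its mark for 77.4% of the 15085 genes. The median log2 fold change was -0.04 over the members tested and 0.00137 over all genes tested. Below 0 were 52 of 87 (59.8%, against 49.7%), and 58 lay within 0.25 of 0 in either direction.

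The lean towards lower values in brain was found among the members of highest brain level. Of the 29 with at least 10 CPM, 24 had a log2 fold change below 0 (82.8%, against 52.5% of all genes tested at that brain level), with a median of -0.17. Of the 43 at 1 to under 10 CPM, 20 were below 0 (46.5%, against 43.3%) with a median of 0.02. Of the 15 tested under 1 CPM, 8 were below 0 (53.3%, against 49.2%) with a median of -0.01. The difference between these groups was not tested.

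**Figure D4:**
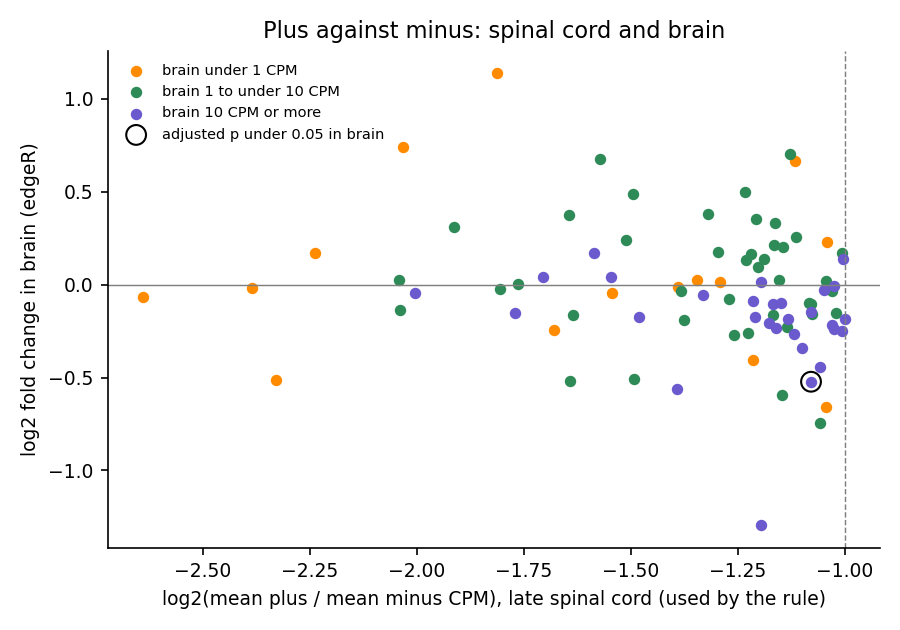
Log2 ratio of plus-marked to minus-marked mean CPM in late spinal cord (horizontal, used to choose the members) against the edgeR log2 fold change in brain (vertical) for the 87 members tested there, coloured by mean brain level; the circle marks the member with an adjusted p under 0.05 in brain. Brain values scatter about 0 with a median of -0.04, and 58 lie within 0.25 of it.

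The member called in brain was ENSRNOG00000008716, ranked 78. In spinal cord it had 601, 814, 768 and 567 CPM in minus-marked and 290, 258, 392 and 361 CPM in plus-marked libraries. In brain it had 198, 194, 230 and 147 CPM in minus-marked and 122.6, 130.9, 143.2 and 136.9 CPM in plus-marked libraries. The brain marks did not overlap, though minus-marked library 4 lay just above the highest plus-marked one. That library was the lowest of its mark for 77.4% of the 15085 genes and for 52.1% of the 96 members. The fitted change in brain was -0.52 on the log2 scale (SE 0.08, edgeR adjusted p = 0.0182), with a ratio of means of 0.694 there and of 0.473 in spinal cord, where it was chosen. Without plus-marked brain libraries 1, 2 and 3 the edgeR adjusted p was 0.0595, 0.0730 and 0.0599, while the log2 fold change stayed at -0.50, -0.53 and -0.55. Within brain codes L1 and L3 the log2 fold change was -0.60 (edgeR adjusted p = 0.434) and -0.46 (edgeR adjusted p = 0.0712), with 1 and 3 plus-marked and 2 minus-marked libraries each, the lone plus-marked library of L1 being assumed to vary like the others.

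The most negative fitted brain value belonged to rank 55, which did not pass the test. It was rare in spinal cord, at 3.50 to 7.69 CPM in minus-marked and 1.24 to 2.68 CPM in plus-marked libraries, and more abundant in brain. There it had 53.4, 69.5, 48.2 and 64.5 CPM in minus-marked and 25.5, 15.7, 20.96 and 36.5 CPM in plus-marked libraries. The brain marks were clearly apart, and the fitted change was -1.30 on the log2 scale (SE 0.27, edgeR adjusted p = 0.173). It was called by DESeq2 (adjusted p = 0.00511), within code L3 (edgeR adjusted p = 0.0415) and without plus-marked brain library 4 (edgeR adjusted p = 0.032). The log2 fold change was -1.46 within code L3 and -0.84 within code L1, which holds a lone plus-marked library. Rank 81 had 11.3 to 13.8 CPM in minus-marked and 8.24 to 9.91 CPM in plus-marked brain, a fitted change of -0.45 on the log2 scale (SE 0.11, edgeR adjusted p = 0.171).

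**Figure D5:**
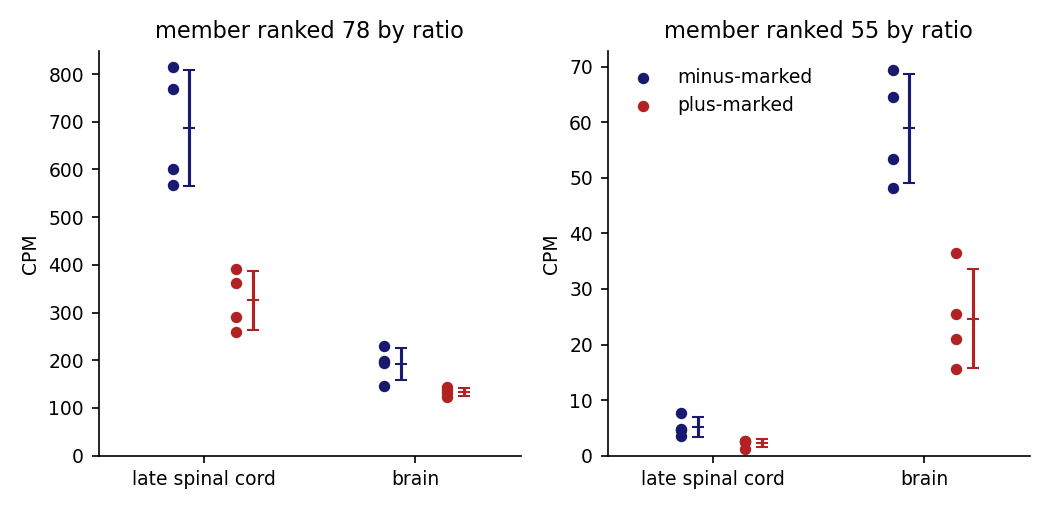
CPM by library in late spinal cord and in brain for the members ranked 78 (left) and 55 (right); points are libraries (4 per mark and tissue) and bars are mean ± SD. The marks are apart in spinal cord, as the rule requires, and both members were picked for this figure by their brain values. In brain the marks are also apart, the first having 123 to 143 against 147 to 230 CPM. The second has 15.7 to 36.5 against 48.2 to 69.5 CPM there.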

How the data were processed

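Total RNA was freed of ribosomal RNA and made into dUTP-based libraries for paired reads, per the labels' protocols. The authors deposited unnormalized counts for each gene. DESeq2, featureCounts and cutadapt are listed, with the build mRatBN7.2 and no settings, per the submitters' processing notes. Neither an aligner nor how strand was treated in counting is given in the sources used here, so reads of overlapping or near-identical genes may be split in ways the counts do not show. The 12 columns of the early-stage table were not used.

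CPM were computed on column totals. Each tissue was fitted on mark alone with edgeR 4.0.16 in R 4.3.3 (filterByExpr, TMM scaling, robust quasi-likelihood F test, two-sided, Benjamini-Hochberg adjustment over all genes tested, threshold 0.05). Standard errors were derived from the F statistic, and the fit was tested on simulated data. Intervals and limits from counts cover counting error only.

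Of the 47357 genes in the reference table, 0 carry an Ensembl identifier. The 25 gene lists set for the comparison were therefore not counted, and no sequence is printed. The rule for named genes took the members of smallest ratio, of highest level, on a list or called in brain, and left out members that have only an identifier. It was lifted for the first by level and the one called in brain. Members without an identifier in the text are given by rank, and those outside these sets were chosen after their values were seen. The members and lists were chosen with earlier results of these data known. Alternatives were DESeq2 1.42.0, RLE scaling, no count filter, other limits of the rule and leaving out each library. Thinned counts and the lane-like code were added after seeing the data.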

Additional observations from a re-analysis of the deposited data

Results flagged for a closer look

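Groups of 4 libraries in which the highest or lowest value stood far from the other 3, by Dixon's ratio of gap to range, were looked for among 88 combinations of a member or a sum with a group. There were 9, at a limit that chance alone passes in about 1 in 20. The rule used the spinal cord values, the sums contain members, and the combinations share libraries. That rate is therefore no valid expectation for this count. In plus-marked spinal cord the low library was library 2 each time, the shallowest: rank 2 had 8.28 CPM there, rank 96 had 20.6 CPM, and the members of 10 CPM or more in brain summed to 2426 CPM. In minus-marked spinal cord rank 58 had 934 CPM in library 3, below 1274 to 1311 CPM in the others. In plus-marked brain rank 2 had 0.701 CPM in library 2, rank 3 had 0.504 CPM in library 3, rank 4 had 0.818 CPM in library 1, and rank 75 had 34.9 CPM in library 1. In minus-marked brain the members under 1 CPM summed to 7.31 CPM in library 4, below 9.20 to 9.48 CPM in the others.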

How the results depend on the processing

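The rule took 39 genes at a ratio of at most 0.4 and 240 at 0.6, and 75 to 146 with 1 library left out. It took 101 on TMM-scaled sizes, 99 with counts thinned to 21008418 per library, 116 and 81 with a mean of at least 0.5 and 2 CPM, and 110 within code L24, of which 45 were among the 96. Genes called lower in late spinal cord numbered 1141, against 1579 by DESeq2, 1335 with the code as a term, 1168 without the count filter, 1066 with RLE scaling and 514 to 1070 with 1 library left out. They numbered 641, 514 and 694 without minus-marked libraries 1, 2 and 3, and 746 without plus-marked library 3. Members called in brain numbered 1, against 4 by DESeq2 and 0 to 2 with 1 library left out. The shares of all genes called in brain under these alternatives are not given here. There were 0 without plus-marked library 1, 2 or 3 and 2 without plus-marked library 4 or minus-marked library 2. The cause was not tested, other than fewer libraries in the subsets. No paired analysis was possible because the column names carry no number that plus-marked and minus-marked libraries of a tissue share. Early-stage alternatives were not run. Low depth limits the 10 members with under 10 counts in a spinal cord library.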
